A study of Mesocricetus auratus with 24 samples.

Results

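In Syrian hamster fetal cells sampled at 4 stages, as short-lived colony pools, as transformed colonies, and as another culture before and after it passed senescence, 377 windows of 1 kb had higher CpG methylation at each successive stage. They were 1.65% of the 22842 windows measured in all 24 libraries. A window entered the set when the group mean of methylation was higher by at least 4 and by less than 20 percentage points at each step, from vehicle-treated pools to morphologically transformed colonies, from these to a senescent culture, and from there to that culture after senescence bypass. The mirrored set, with 3 downward steps of the same size, held 42 windows, or 0.184% of those measured. On positions listed in all 24 libraries, which leave 2266 windows, the sets were nearer in size, with 26 rising windows, or 1.15%, and 11 falling windows, or 0.485%. The levels of these 4 groups chose the windows, so they are described below without a test. The colonies of normal morphology and the pools exposed to benzo[a]pyrene took no part in the choice.

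Cytosine methylation at CpG dinucleotides is copied to the new strand at each cell division by maintenance methyltransferases, while de novo methyltransferases add it at unmethylated sites and TET enzymes start its removal. Cultured cells that divide many times are known to gain methylation at some CpG-rich regions and to lose it elsewhere. In the Syrian hamster embryo cell transformation assay, a carcinogen turns some colonies of primary fetal cells to a criss-crossed, piled-up morphology, and most cultures grown from such colonies stop dividing in senescence while a few go on. Benzo[a]pyrene, a polycyclic aromatic hydrocarbon, becomes DNA-reactive after metabolic activation.

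The assay was reduced representation bisulfite sequencing. DNA is cut at CpG-containing sites and unmethylated cytosines are read as thymine, so the share of reads with C at a position gives its methylation. Each of 6 groups had 4 libraries. Vehicle pools were about 60 colonies each, treated with 0.2% DMSO and collected on day 9. Transformed colonies were cultures grown for 19 to 25 days from single colonies of transformed morphology after 5 µg/mL benzo[a]pyrene. The senescent group, on day 48, and the bypass group, on day 94, were both a single culture from a transformed colony after 5 µg/mL benzo[a]pyrene, and their 4 libraries each were technical replicates. Normal colonies were grown for 19 to 25 days from colonies of normal morphology after the same exposure, and B[a]P pools were about 60 exposed colonies each, collected on day 9. The day 9 pools and the colonies came from a single male fetus, whereas the culture came from an assay on pooled female and male fetuses and was typed male. The step from vehicle pools to transformed colonies therefore changed exposure, time in culture, morphology and the number of founding colonies at once, and the step from transformed colonies to the senescent culture changed time, the source fetuses and a move from 4 colonies to 1 culture. The contributions of these factors to a step cannot be told apart. Only the last step compared the same culture at 2 times, and there the spread between libraries is technical.

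The libraries listed 809562 to 1484688 CpG positions each, all with at least 10 reads, and their summed coverage ran from 30316233 to 67276906 reads. Over all 22842 windows the mean methylation was 28.3% in vehicle pools, 29.99% in transformed colonies, 31.8% in senescent libraries and 34.4% in bypass libraries, so the mean over all windows was higher by 1.70, 1.78 and 2.62 points at the same 3 steps. Rising windows had a median of 31.5 reads per position in vehicle pools, 37.3 in transformed colonies, 35.9 in senescent and 33.6 in bypass libraries. Their median number of positions was 12, 15.75, 14.75 and 12.75 in the same order. The part of coverage and positions in the steps was not tested. No pair of libraries within a group agreed within sampling noise, since the lowest mean chi-square per position over 36 pairs was 20.0015.

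Averaged over the 377 rising windows, methylation was 38.2%, 32.3%, 37.4% and 38.1% in the 4 vehicle pools. It was 42.3%, 48.6%, 45.9% and 47.4% in the transformed colonies. The senescent libraries stood at 55.2%, 58.4%, 56.3% and 55.1%, and the bypass libraries at 65.9%, 65.8%, 65.7% and 67.8%. At the level of this average no 2 adjoining stages overlapped, as the rule makes likely. Vehicle pool replicate 2 stood below the other 3, and without it the rule chose 362 windows, with a vehicle mean of 36.6%. It was also the lowest vehicle pool over all measured windows, at 27.4% against 28.4 to 28.7%. The group means were 36.5% ± 2.84, 46.1% ± 2.72, 56.2% ± 1.53 and 66.3% ± 0.994 along the stages (SD over libraries, n = 4 each). The mean steps were 9.55, 10.1 and 10.1 points, and the mean total change from vehicle pools to bypass was 29.8 points. The total change of single windows ran from 13.9 to 52.2 points with a median of 29.0, and 174 of the 377 windows passed 30 points and 48 passed 40. The largest step of a window was the first in 110 windows, the second in 136 and the third in 131. The rule held every step between a lower and an upper limit, which made steps of similar size likely. Without the upper limit it chose 711 windows, so windows with a larger step were left out of the 377. Nothing is therefore read from this split about the part of each stage in the change.

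**Figure D1:**
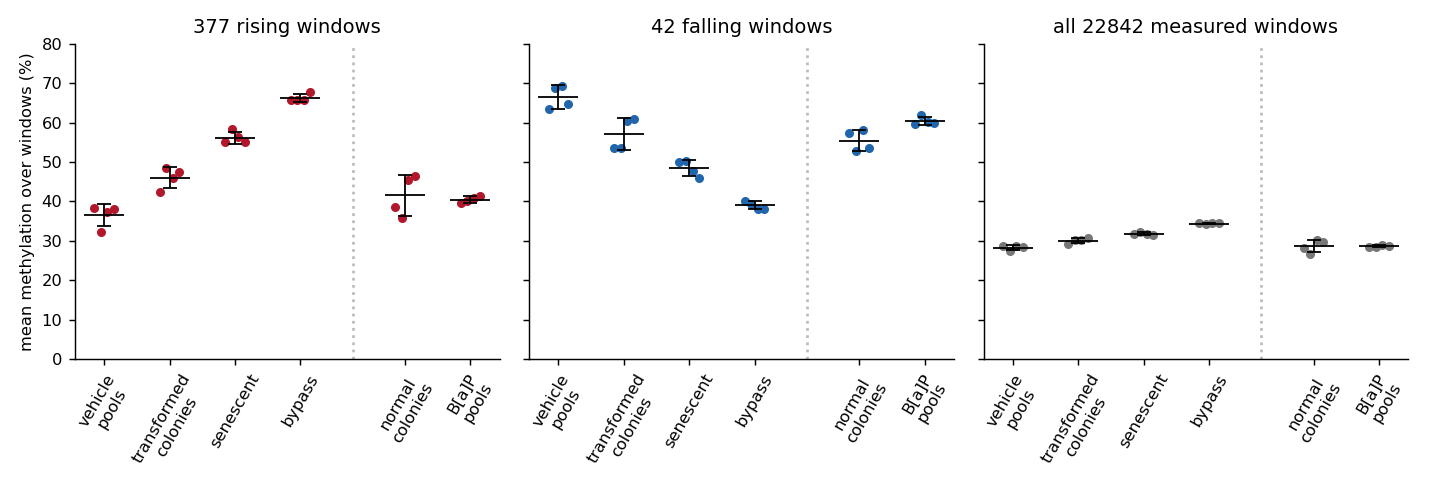
Mean methylation in percent over the 377 rising windows, the 42 falling windows and all 22842 measured windows, by group. Points are libraries, long lines are group means and bars are the SD over 4 libraries; right of the dotted line are normal colonies and B[a]P pools, which did not choose the windows and lie at 41.5% and 40.4% over the rising windows.

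Most rising windows were of low or intermediate methylation in vehicle pools. Of the 377, 140 began under 20%, 93 between 20 and 50%, 143 between 50 and 80%, and 1 above 80%. In bypass, 161 of them were at 80% or more, 87 between 50 and 80%, 120 between 20 and 50%, and 9 were still under 20%. Among all measured windows 61.1% were under 20% in vehicle pools and 8.72% lay between 20 and 50%.

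At single CpG positions inside the rising windows the shares of low and of high values differed between the stages, and that of intermediate values differed little. The libraries of the 4 stages chose these windows, so fewer low and more high positions along the stages were made likely. No share over all measured windows stands beside these values, and nothing is read from their direction. Positions inside the rising windows with under 20% methylation made up 59.6% ± 5.39 of those listed in vehicle pools, 51.1% ± 1.51 in transformed colonies, 40.6% ± 2.35 in senescent and 32.4% ± 2.70 in bypass libraries (SD, n = 4 each). Positions at 80% or more made up 25.4% ± 1.54, 32.7% ± 3.74, 42.3% ± 3.37 and 53.5% ± 1.80 along the same stages. Positions between these limits made up 15.1%, 16.2%, 17.1% and 14.1%. In normal colonies 56.7% of positions were under 20% and 28.7% were at 80% or more, against 55.3% and 27.1% in B[a]P pools.

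Among the 2181 windows whose 3 steps were each of 4 to 20 points in either direction, 377 or 17.3% went up 3 times and 42 or 1.93% went down 3 times. The most frequent order was up, down, up, with 626 windows or 28.7%. It was followed by the 3 upward steps, then by down, up, up with 310 windows. Steps of this size were more often upward than downward in every comparison taken alone. Of all measured windows, 19.5% were higher and 10.6% lower by 4 to 20 points in transformed colonies than in vehicle pools. In the senescent culture 20.7% were higher and 11.3% lower than in transformed colonies, and in bypass 24.8% were higher and 10.3% lower than in senescence.

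**Figure D2:**
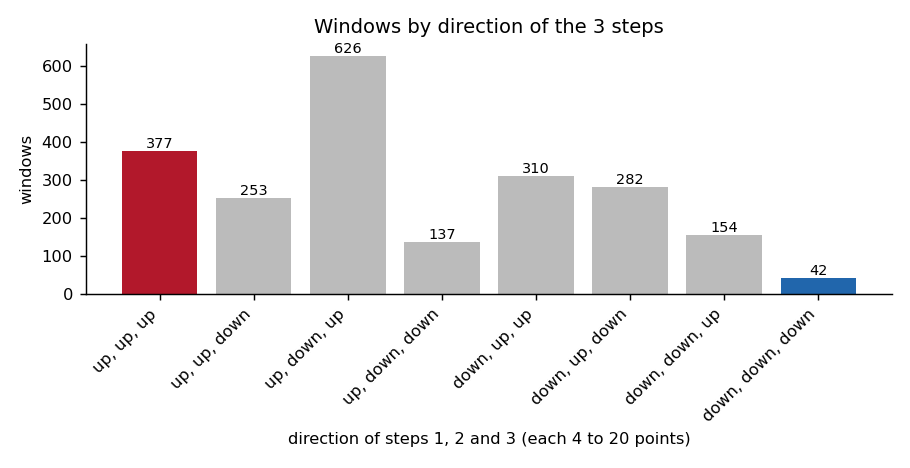
Number of 1 kb windows with each of the 8 possible orders of direction over the 3 steps, among the 2181 windows with every step of 4 to 20 points. The 377 rising windows are in red and the 42 falling windows in blue; the order up, down, up held 626 windows.

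The spread between libraries in a rising window was about as large as a step. The median SD of a rising window was 11.1 points in vehicle pools, 11.6 in transformed colonies, 9.12 in senescent and 8.81 in bypass libraries, against mean steps of about the same size; over all measured windows the median SD was 3.28 to 4.04 points by group. All 4 transformed colonies were above all 4 vehicle pools in 26 rising windows, or 6.90%, beside 3.09% of all measured windows. Senescent libraries were above all transformed colonies in 18, or 4.77%, beside 5% of all windows. Bypass libraries were above all senescent libraries in 39, or 10.3%, beside 6.94%. Over the full course, all bypass libraries were above all vehicle pools in 259 of 377 windows, or 68.7%, beside 16.2% of all windows. Because the rule chose on these means, nothing is read from the shares. In 302 rising windows no step was free of overlap, in 68 a single step was, in 6 there were 2, and in 1 window all 3 were. Over all measured windows 7, or 0.0306%, had 3 upward steps without overlap. The counts with fewer such steps have no share over all windows beside them.

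In rising windows the middle of the course was often an average over unlike libraries. The counts that follow have no share over all measured windows beside them, so they are not read as a trait of this set. In 207 of the 377 windows at least 1 transformed colony was at or below the mean of the vehicle pools while at least 1 other was at or above the senescent mean. In 69 windows all 4 colonies lay between these means. For the senescent libraries, which are repeats of a single culture, 136 windows had libraries at or past both neighbouring means and 105 had all 4 between them. The median range between the highest and the lowest library of a rising window was 25.6 points in transformed colonies and 20.3 in senescent libraries. It was 25.1 points in vehicle pools, 21.7 in B[a]P pools, 26.0 in normal colonies and 19.3 in bypass libraries. A wide range was thus not particular to single colonies.

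Only 1 rising window separated the libraries at every step, of 7 such windows among all those measured. This window, at KB708258.1:4060001-4061000, held 29 to 143 positions and 577 to 6006 reads per library. Its methylation was 6.39%, 3.28%, 0.693% and 2.66% in vehicle pools. Transformed colonies had 7.01%, 11.4%, 9.11% and 6.84%. The lowest colony thus lay just above the highest vehicle pool. Senescent libraries had 29.4%, 23.4%, 15.4% and 24.0%, and bypass libraries had 38.8%, 35.7%, 44.6% and 44.5%. Normal colonies, at 7.19%, 6.91%, 6.07% and 9.34%, and B[a]P pools, at 3.13%, 2.62%, 8.06% and 10.6%, overlapped each other and the transformed colonies. Over 27 positions listed in at least 2 libraries of every group, bypass was above vehicle pools at 20 positions, below at 1 and equal at 6. At 11 of these positions bypass was higher by 50 points or more, so the CpGs of this window differed among themselves. On these positions, each weighted equally, the means were 2.10% in vehicle pools, 3.85% in transformed colonies, 15.9% in senescent and 42.2% in bypass libraries, with 11.2% in normal colonies. The first step there was 1.75 points, under the limit of the rule, and the last was 26.3 points, over it.

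The 5 windows with the largest total rise among those with at least 10 positions in every library showed how unlike the routes were. The window at KB708281.1:1761001-1762000 had the largest total change of all 377, at 52.2 points. Its vehicle pools were at 20.5%, 15.4%, 8.61% and 20.9%. Its transformed colonies were at 17.0%, 7.26%, 62.8% and 46.3%, so a pair of colonies was as low as the vehicle pools and the other pair about as high as the senescent libraries, at 46.5%, 54.0%, 47.0% and 60.2%. Bypass libraries had 75.5%, 65.3%, 60.0% and 73.3%. Normal colonies were less scattered than transformed colonies, at 2.79%, 19.1%, 43.1% and 29.1%, and B[a]P pools had 13.6%, 28.6%, 8.93% and 19.1%. All 9 positions matched across the groups were higher in bypass than in vehicle pools, and their steps were 7.02, 11.4 and 42.2 points, so the last step was larger there than the rule allows. On these positions normal colonies averaged 9.70%, below the 25.7% of vehicle pools.

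At KB708225.1:6369001-6370000 the transformed colonies spanned most of the scale, at 85.0%, 78.1%, 5.68% and 48.3%, between vehicle pools of 27.2%, 45.4%, 46.7% and 29.1% and senescent libraries of 59.9%, 66.5%, 63.9% and 67.8%. Bypass libraries had 83.5%, 87.9%, 70.4% and 83.4%. Normal colonies averaged 11.2% ± 12.2 and B[a]P pools 23.2% ± 20.5 (SD, n = 4 each), both below the vehicle mean of 37.1%. No position of this window was listed in at least 2 libraries of each group, so its level was read from differing positions in differing libraries and the steps are uncertain.

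The window at KB708321.1:1756001-1757000 went from 15.7% ± 6.38 in vehicle pools through 34.4% ± 9.22 in transformed colonies and 42.5% ± 18.8 in senescent libraries to 58.9% ± 4.55 in bypass (SD, n = 4 each). A single senescent library was at 14.8% there, beside 55.4%, 46.6% and 53.1% in the others, which is a difference between repeats of 1 culture. At KB708367.1:301001-302000 vehicle pools had 66.6%, 0%, 37.7% and 35.0%, transformed colonies 64.4%, 24.3%, 19.3% and 54.3%, senescent libraries 55.2 to 60.9%, and bypass libraries 69.6 to 84.8%. Its first step was thus smaller than the spread within either group, and on 19 matched positions it was -1.03 points, with 29.2% in transformed colonies against 30.2% in vehicle pools. At KB708183.1:11776001-11777000 the group means were 34.4%, 38.5%, 57.7% and 75.4% along the stages; the 4 senescent libraries were between 56.0% and 60.8% and the 4 bypass libraries between 69.8% and 80.0%, while the transformed colonies ran from 17.4% to 58.0%. On its 26 matched positions bypass averaged 63.6%, against 63.1% in senescent libraries, so the last step was 0.56 points there and the separation of these groups was not seen. Of the 4 of these 5 windows that had matched positions, only the window on KB708321.1 kept 3 upward steps of 4 to 20 points on matched positions, at 15.1, 11.4 and 8.43 points.

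**Figure D3:**
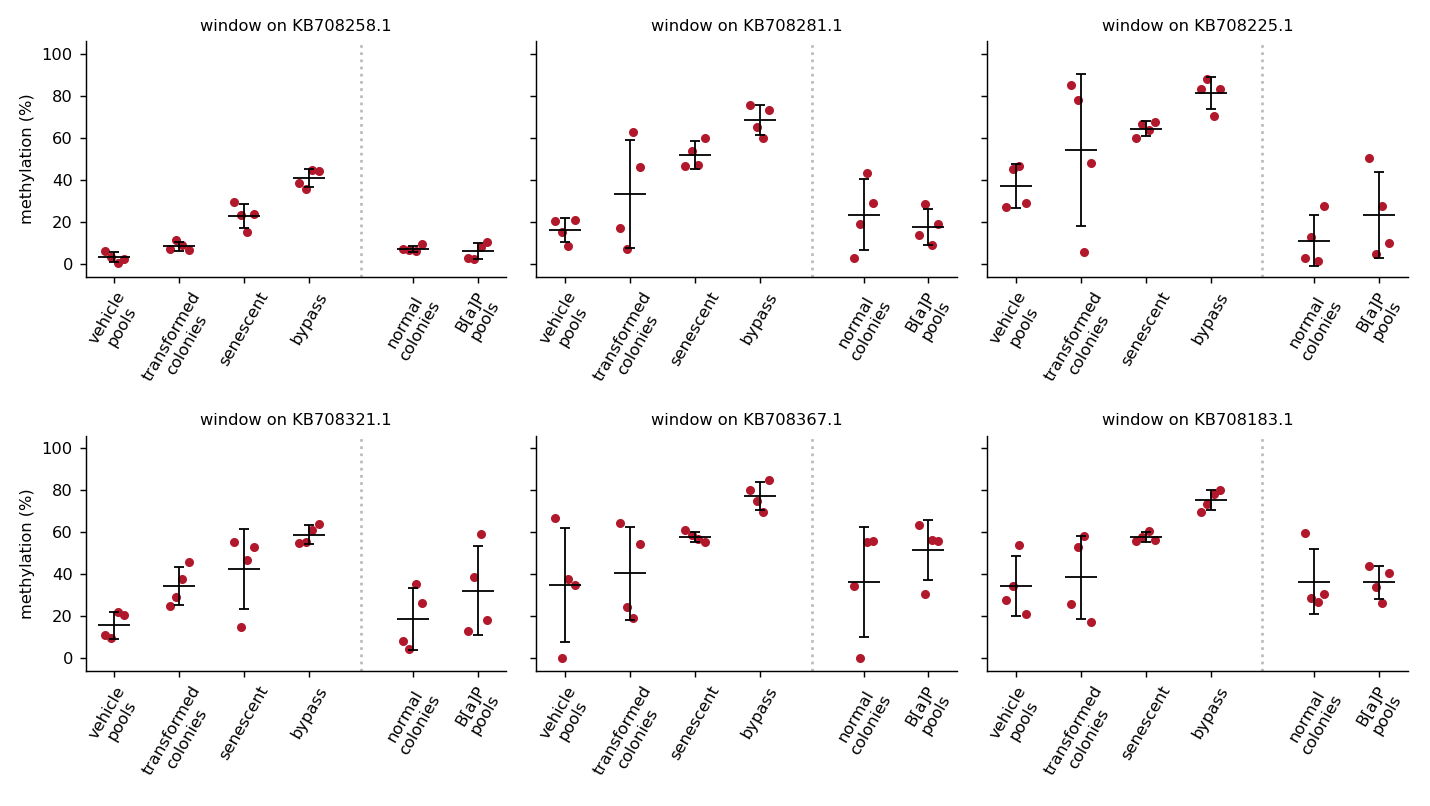
Methylation in percent of 6 rising windows in the 24 libraries, by group. Points are libraries, long lines are group means and bars are the SD over 4 libraries; only the window on KB708258.1 has no overlap at any of the 3 steps, and the transformed colonies on KB708225.1 run from 5.68% to 85.0%.

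Some windows lay close to the limit of the rule on both sides. Just inside the 4-point limit were KB708225.1:8006001-8007000, whose smallest step was 4.001 points, and KB708425.1:158001-159000, at 4.010 points. Just outside were KB708157.1:16090001-16091000, at 3.996 points, and KB708344.1:923001-924000, at 3.991 points. The last of these had group means of 2.77%, 7.55%, 21.4% and 25.4% along the stages.

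To see the course in libraries that had not chosen the windows, the rule was applied to 3 libraries of each stage and the windows were read in the libraries of the number left out, for each number in turn. This found 279 to 328 rising windows. Their mean steps were 9.60, 9.99 and 10.2 points in the libraries that chose them. In the libraries left out they were 5.75, 10.1 and 7.35 points, and the total change was 23.2 points against 29.7 points in the choosing libraries, so 78.0% of it remained. Over all measured windows, with no choice made, the total change was 6.11 points in the same libraries, so the remaining share includes this general difference. The left-out libraries averaged 39.6% in vehicle pools, 45.4% in transformed colonies, 55.5% in senescent and 62.8% in bypass libraries. For the step from vehicle pools to transformed colonies 59.9% of the size remained, and for the step from senescence to bypass 72.4%. The numbers do not tie the libraries of different groups to each other, and those of the last 2 stages are technical repeats. The left-out senescent and bypass libraries thus came from the culture that chose the windows. What remained of the last 2 steps and of the total was partly set in advance and is not a replication. Only for the first step, with 59.9% kept, were both sides read in pools and colonies that had not chosen the windows.

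Single windows were less stable than the average. All 3 steps were upward in the left-out libraries in 24.2% of the windows on average, with 21.0 to 29.3% over the 4 choices, beside 8.65% of all measured windows. Of the 377 members, 9 were chosen in all 4 of the reduced sets, 67 in 3, 128 in 2, 101 in 1 and 72 in none. The falling windows kept less. Their total change was -7.42 points in the left-out libraries against -27.6 points in the choosing ones, so 26.9% remained, and the first step was 1.12 points upward, while the mean over all windows differed by 6.11 points in the upward direction. All 3 steps were downward in 7.09% of them.

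**Figure D4:**
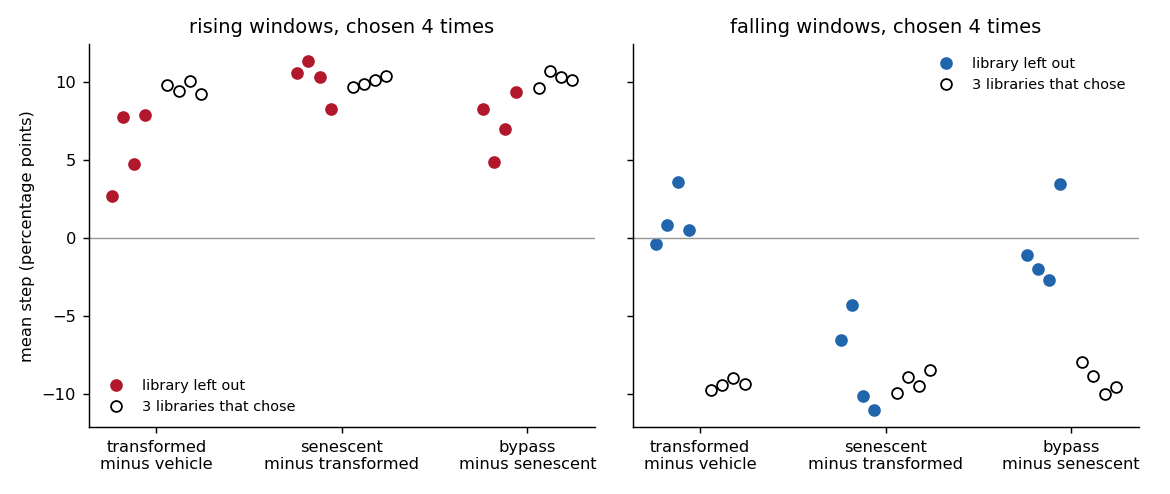
Mean step in percentage points over windows chosen from 3 libraries per stage, for rising and falling windows. Filled points are the libraries left out of the choice and open points the 3 libraries that chose, 1 point for each of the 4 choices; the left-out steps of rising windows are all above 0, while the first left-out step of falling windows averages 1.12.

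Normal colonies and B[a]P pools lay near the low end of the course. Over the 377 rising windows normal colonies averaged 38.6%, 35.7%, 45.4% and 46.4%, and B[a]P pools averaged 39.5%, 40.04%, 40.9% and 41.3%. The colonies therefore scattered on both sides of the pools. This scatter was not particular to the rising windows. Over all measured windows normal colonies were at 28.1%, 26.7%, 30.3% and 29.6%, and B[a]P pools at 28.4 to 28.9%. Over the rising windows the means were 41.5% ± 5.21 in normal colonies and 40.4% ± 0.835 in B[a]P pools (SD, n = 4 each). The difference was 1.1 points, smaller than the spread between normal colonies. Its direction rested on single colonies, since it was -0.19 points without normal colony replicate 3 and -0.53 points without replicate 4. Over all measured windows the difference was 0.010 points. Normal colonies were higher in 210 of the 377 windows, or 55.7%, beside 54.0% of all measured windows. By 10 points or more, 64 rising windows, or 17.0%, were higher in normal colonies and 55, or 14.6%, were lower. Over all measured windows these shares were 6.30% and 7.46%.

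No rising window passed the test between these groups. With a quasi-binomial model of the read counts per window and limma's moderated dispersion, 0 of 352 rising windows that could be tested were called at an adjusted p under 0.05 and 10 points, beside 0% of the 10627 windows tested. The smallest adjusted p of a rising window was 0.447. At an unadjusted p under 0.05 there were 37 rising windows, or 10.5%, of which 24 were higher and 13 lower in normal colonies, beside 7.98% of all windows tested. edgeR's quasi-likelihood test also called 0 windows. Under its unadjusted p of 0.05 were 12 rising windows, or 3.41%, and 364 windows in all, or 3.43%. In data simulated for this comparison the quasi-binomial test found 53% of windows changed by 40 points and 3% of those changed by 20 points. edgeR's test found 4% and 0% of them, so its 0 calls say little. Differences of the size of a step would thus seldom be found with 4 libraries per group.

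The 3 rising windows with the smallest p between these groups are given as values. At KB708185.1:8057001-8058000 normal colonies had 69.0%, 100%, 81.5% and 65.8%, and B[a]P pools had 39.5%, 35.8%, 65.8% and 42.9%, on 3 to 9 positions. At KB708157.1:18332001-18333000 normal colonies had 11.8%, 4.51%, 8.55% and 9.69%, and B[a]P pools had 0%, 0.415%, 0.195% and 0%. At KB708135.1:10529001-10530000 normal colonies had 3.41%, 0%, 1.55% and 0%, and B[a]P pools had 7.26%, 21.4%, 22.03% and 1.96%, while all 4 vehicle pools were listed at 0%. Their limma-moderated adjusted p was 0.447 in each case. In all, normal colonies were above B[a]P pools without overlap in 13 rising windows, or 3.45%, beside 1.88% of all windows, and below them in 6, or 1.59%, beside 1.1%.

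Placed on the course of each window, normal colonies lay between vehicle pools and transformed colonies in 175 windows, below vehicle pools in 92, between transformed colonies and senescence in 84, between senescence and bypass in 24 and above bypass in 2. B[a]P pools lay between vehicle pools and transformed colonies in 172, below vehicle pools in 115, between transformed colonies and senescence in 73, between senescence and bypass in 16 and above bypass in 1. The B[a]P pools averaged 3.93 points above vehicle pools in the rising windows, 40.4% against 36.5%, and 0.37 points above them over all windows. Transformed colonies averaged 4.52 points above normal colonies, 46.1% against 41.5%, and 1.32 points over all windows. Both differences share a group with the rule, which set vehicle pools low and transformed colonies high, and neither was tested. In the windows chosen from 3 libraries per stage, the left-out vehicle pools averaged 39.6%, beside 40.1% in B[a]P pools and 41.9% in normal colonies, so the gap between exposed and vehicle pools was smaller in libraries that had not chosen the windows.

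In the 42 falling windows the group means were 66.5%, 57.1%, 48.5% and 39.0% along the stages, with 55.4% ± 2.65 in normal colonies and 60.5% ± 1.08 in B[a]P pools (SD, n = 4 each). Normal colonies were 5.07 points below B[a]P pools there, or 2.18 points below when vehicle pool replicate 1 took no part in the choice, while over the rising windows they were 1.1 points above. No falling window of 42 tested was called between these groups, and 4 had an unadjusted p under 0.05. Only 2 falling windows had 10 positions in every library. At KB708204.1:5933001-5934000 the means were 63.4%, 56.9%, 46.6% and 37.2% along the stages, with 68.3% in normal colonies and 74.0% in B[a]P pools. At KB708158.1:10788001-10789000 they were 33.5%, 28.8%, 23.7% and 12.1%, with 14.5% in normal colonies and 28.9% in B[a]P pools.

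Rising windows were more frequent among windows of intermediate methylation, judged by the normal colonies and B[a]P pools, which had not chosen them. They were 4.71% of the 2019 windows at 20 to 50% and 4.12% of the 3473 windows at 50 to 80%. They were 0.867% of the 13844 windows under 20% and 0.542% of the 3506 windows at 80% or more. Falling windows were 0.693%, 0.662%, 0.00722% and 0.114% of the same classes. Windows near full methylation had little room for upward steps, and windows near no methylation had little room for downward steps. The low shares in these classes were therefore partly set by the rule. The spread between replicates moved with the level, since the median SD within normal colonies and B[a]P pools was 15.2 and 13.8 points in the intermediate classes, 1.27 points under 20% and 7.53 points from 80% up. Its part in the choice of windows was not tested. Rising windows at 20 to 80% had a median SD of 16.3 points in normal colonies and 13.0 in B[a]P pools, against 15.3 and 12.4 for all windows at that level.

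The number of CpG positions moved with membership as well. By quartile of the mean number of positions per window, from 3 to 10.3 up to 30.2 to 133.7, rising windows were 1.88%, 2.62%, 1.51% and 0.594% of the measured windows, and falling windows 0.475%, 0.192%, 0.0702% and 0%. The median rising window had 14.2 positions, against 18.1 for all windows. At least 5 positions in every library were present in 184 rising windows, or 48.8%, against 60.6% of all windows, and at least 10 in 59.

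**Figure D5:**
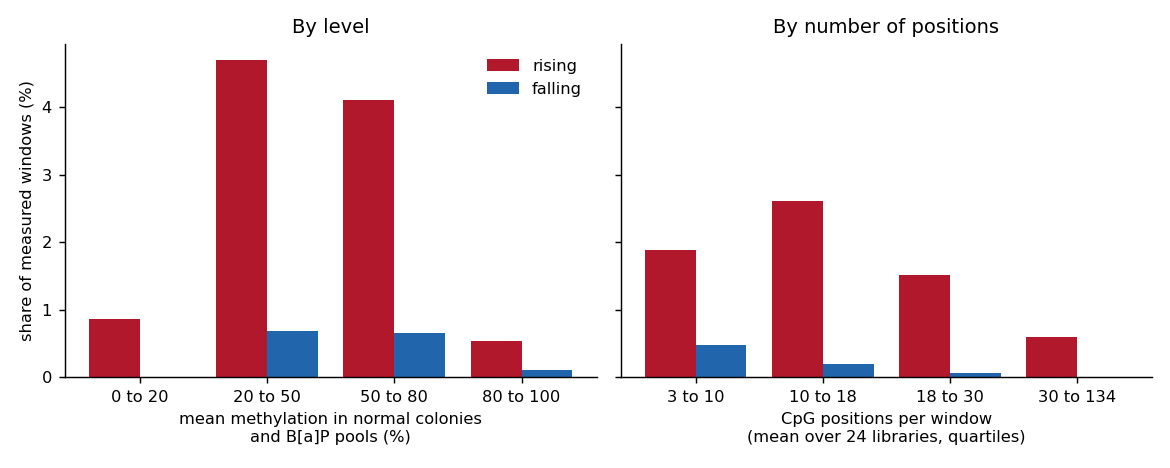
Share of measured windows in percent that were rising or falling, by mean methylation in normal colonies and B[a]P pools and by quartile of the mean number of CpG positions per window. Rising windows were 4.71% and 4.12% of windows at intermediate levels, and 0.594% of those with the most positions.

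Because libraries list differing positions, the course was also read on positions found in at least 2 libraries of each of the 6 groups. This kept 337 rising windows and 2997 positions. Mean methylation was 37.8% in vehicle pools, 46.8% in transformed colonies, 55.6% in senescent and 66.2% in bypass libraries, with 42.4% in normal colonies and 40.3% in B[a]P pools. The steps were 8.96, 8.75 and 10.7 points, close to those over all positions. All 3 steps were upward in 192 of these windows, or 57.0%, beside 12.8% of all windows read in this way. Bypass was above vehicle pools in 331, or 98.2%, beside 62.5% of all windows read in this way. It was the highest of the 6 groups in 283 of the 337, beside 7184 of all 20260 windows. In 53 rising windows both strands held at least 2 positions in every library. There the means along the stages were 33.3%, 41.6%, 53.1% and 62.1% on the forward strand. On the reverse strand they were 31.9%, 39.8%, 50.0% and 60.6%. All 3 steps were upward in 35 windows on the forward and 36 on the reverse strand. The matched positions and the strands are parts of the data that chose the windows. Upward steps were thus made likely, and nothing is read from these counts.

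Within a group, the same CpG was often low in a library and high in another. Of positions listed in all 4 libraries of a group, those under 20% in at least 1 library and at 80% or more in at least 1 other made up 29.3% in vehicle pools, 31.5% in transformed colonies, 20.7% in senescent and 20.3% in bypass libraries. They made up 29.3% in normal colonies and 28.6% in B[a]P pools. Over all measured windows this share was 7.60 to 9.61% by group, and over windows at 20 to 80% in normal colonies and B[a]P pools it was 17.2 to 35.9%. Group by group, the share in rising windows and in windows of intermediate level was 29.3% and 35.9% in normal colonies, 28.6% and 27.9% in B[a]P pools, 20.7% and 18.5% in senescent libraries, and 20.3% and 17.2% in bypass libraries. The share in the senescent and bypass groups comes from repeat libraries of a culture, with a median of 37 and 35 reads at these positions.

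The rising windows were spread widely. They lay on 143 of 977 scaffolds with a measured window, with at most 16 on a single scaffold, KB708147.1. Of the 74 scaffolds with at least 100 measured windows, 67 held a rising window, with a median share of 1.65% and a highest share of 5.77%. Falling windows lay on 35 scaffolds. On the 10 scaffolds whose coverage was lower in bypass libraries, 8 of 765 windows were rising, or 1.05%, against 369 of 22077, or 1.67%, on the others.

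Few rising windows adjoined each other. Linking windows at most 5 kb apart gave 7 runs with 15 windows, and falling windows formed 0 runs. The longest run held 3 windows, at KB708304.1:278001-279000, 280001-281000 and 283001-284000. Their means along the stages were 30.7%, 47.7%, 52.0% and 57.9% in the first window, 65.1%, 76.5%, 81.0% and 87.5% in the next, and 12.7%, 31.7%, 43.7% and 57.6% in the last. The other 6 runs tied at 2 windows each, and the 2 with the largest mean total change are given. At KB708174.1:974001-975000 the means were 45.9%, 53.7%, 69.0% and 78.0%, and in the adjoining window from 975001 they were 13.4%, 19.4%, 35.2% and 54.1%, so these neighbours stood at unlike levels at every stage. At KB708161.1:14814001-14815000 they were 66.3%, 71.9%, 89.2% and 97.6%, and at 14816001-14817000 they were 42.02%, 46.4%, 61.6% and 78.8%.

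The windows near rising windows were also higher at each later stage while staying outside the set. The 104 windows adjoining a rising window and in neither set averaged 24.9% in vehicle pools, 28.2% in transformed colonies, 32.4% in senescent and 37.7% in bypass libraries, with 26.4% in normal colonies and 24.1% in B[a]P pools. Their total change was 12.8 points, against 6.11 points over all measured windows, and it was above 0 in 83.7% of them, against 69.97% of all windows. The 46 windows at 2 kb had a total change of 11.7 points, above 0 in 71.7%, and the 42 windows at 5 kb had 11.6 points, above 0 in 85.7%, so the mean total changed little with distance. The difference between these windows and all windows was not tested.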

How the data were processed

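The deposited tables list, per the file headers, CpG positions by strand, with a count of reads (the coverage) and percentages of C and T. Positions under 10 reads were not listed in the deposited counts. The submitters' processing notes name methylKit 1.10.0, R 3.6.1, Bismark 0.22.1, Bowtie2, Trim Galore 0.5.0 and bcl2fastq 2.20.0.42. The build was not given in the sources used here; windows are named by scaffold and position, and genes and sequences were not used here. Methylated reads were recovered from the deposited percent values and coverage; all values at coverage up to 1000 were whole within 0.06 reads.

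Methylation of a 1 kb window was its methylated reads over all its reads, in percent, for windows that held 3 positions or more in every library. Normal colonies and B[a]P pools were compared per window with a quasi-binomial logistic model whose dispersion was moderated with limma 3.58.1 within 10 classes of pooled methylation, on windows at 5 to 95% pooled methylation, with Benjamini-Hochberg adjustment over 10627 windows; calls needed an adjusted p under 0.05 and 10 points. edgeR 4.0.16 was an alternative, and both were tested on simulated data. Reads without molecular identifiers are not independent molecules, and depth limits counting error only. Python 3.11.15 and R 4.3.3 were used. The windows named are the rising windows without overlap at any step, the 5 largest rises and the largest falls with at least 10 positions in every library, the 3 smallest p between normal colonies and B[a]P pools, the windows next to the 4-point limit on each side, and the 3 longest runs, of which the second and the third were taken among 6 ties by the largest mean total change. The windows, the rule and these lists were chosen with earlier results of these data known.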

Additional observations from a re-analysis of the deposited data

Results flagged for a closer look

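In 11 of 144 groups of 4 libraries, 1 library stood apart from the other 3 by Dixon's criterion, where chance gives about 1 in 20, or 7.2. Over the rising windows, vehicle pool replicate 2 averaged 32.3%, below the other vehicle pools at 37.4 to 38.2%; without it the rule chose 362 windows. Bypass replicate 4 averaged 67.8%, above 65.7 to 65.9% in the other bypass libraries. Over the falling windows, B[a]P pool replicate 2 averaged 62.1%, above 59.8 to 60.2% in the other B[a]P pools.

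The other cases were single windows. At KB708161.1 from 14816001, B[a]P pool replicate 4 had 67.8%, above the other B[a]P pools, and senescent replicate 3 had 55.8%, below the other senescent libraries. At KB708174.1 from 974001, transformed colony replicate 1 had 88.6%, while the other 3 colonies had 38.3 to 44.4%. At KB708183.1 from 11776001, normal colony replicate 1 had 59.6%, while the other 3 had 26.8 to 30.8%. At KB708304.1 from 278001, bypass replicate 1 had 75.7%, above the other bypass libraries. At KB708304.1 from 283001, normal colony replicate 3 had 67.6%, while the other 3 had 17.7 to 21.6%, and transformed colony replicate 1 had 40.8%, above the other transformed colonies. At KB708344.1 from 923001, which lies just outside the rule, senescent replicate 2 had 15.01%, below the other senescent libraries.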

How the results depend on the processing

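The number of rising windows, 377, and of falling windows, 42, changed with coverage, positions and limits. With at least 20 reads per position they were 137 and 25, of 9722 windows measured. With at least 5 positions they were 184 and 15 of 13840 windows, and with at least 10 positions 59 and 2 of 6213. On positions listed in all 24 libraries they were 26 and 11, of 2266 windows. Steps of at least 6 points gave 171 and 12, steps of at least 3 points gave 70 falling windows, and no upper limit gave 711 rising windows. These settings measure fewer windows or change the limits by construction. Leaving out 1 library gave 319 to 388 rising and 35 to 49 falling windows, and leaving out a replicate number of all 4 stages gave 279 to 328 and 32 to 49.

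Normal colonies minus B[a]P pools over the rising windows was 7.18 points on positions listed in all 24 libraries, against 1.1; the cause was not tested. It ran from -0.53 points without normal colony replicate 4 to 3.04 points with other libraries left out, so its sign rested on single colonies. Over the falling windows it was -10.03 points with at least 10 positions, -9.10 on positions listed in all 24 libraries and -8.17 with windows shifted by 500 bases, against -5.07, and -7.21 to -2.18 with a library left out; the cause was not tested. Chosen after seeing the data, matched positions gave 2.05 and -4.03 points, and leaving out the 10 scaffolds of lower bypass coverage gave 369 rising and 39 falling windows.

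The test between normal colonies and B[a]P pools called 0 windows with any library left out, 1 window without moderation of the dispersion, and 4 windows with the replicate number as a block, of which 0 were rising and 1 was falling. The numbers did not pair the libraries, since same-numbered deviations correlated at 0.011, 0.024, 0.0098 and -0.011. Of 259 values of bypass minus vehicle pools for 22 named windows under the alternatives, 0 had the opposite sign and 2 moved by more than the spread between replicates. The windows were named from the same libraries, so the sign was largely set in advance and nothing is read from it.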
